A study of Cervus nippon with 40 samples.

Results

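MicroRNAs (miRNAs) are short RNAs that lower the translation or stability of the messenger RNAs they pair with. A small number of miRNA genes lie inside the Hox clusters, the groups of homeobox genes that give each level of the body its identity along the axis from head to tail. The miR-196 genes sit in the Hox A, B and C clusters among the genes used in the rear of the body, and miR-196 is known to repress HOXB8. The miR-10a gene sits in the Hox B cluster and the miR-10b gene in the Hox D cluster, further towards the end used in front of miR-196. Because these miRNAs are transcribed within their clusters, they are known for keeping a record of body position in tissues of the trunk and limbs.

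The deposited tables of Sika deer (Cervus nippon) listed 4 of these miRNAs under the names of their bovine counterparts, bta-miR-196a, bta-miR-196b, bta-miR-10a and bta-miR-10b, and the prefix is left out below. They were taken as all names that begin with miR-196 and as miR-10a or miR-10b with any arm. They were 4 of the 306 known miRNAs and of the 499 names in all. The 40 small RNA libraries came from 10 organs (kidney, muscle, testes, adrenal, lung, heart, brain, liver, spleen and antler) of male Shuangyang deer. The 4 stages were juvenile at 1 year of age, adolescence at 3 years, adult at 5 years and aged at 10 years. There was 1 library for each organ and stage, made from the pooled RNA of 3 deer, and the 10 libraries of a stage came from the same deer, 12 deer in all. No treatment was given, and the site of the muscle sample was not given in the sources used here. Here kidney, muscle, adrenal and testes (16 libraries) are called the caudal organs and brain, heart and lung (12 libraries) the rostral organs, while antler, liver and spleen stand in neither set.

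The unit is RPM, the reads of a miRNA per 1000000 miRNA reads of its library. The libraries held 41866 reads (aged testes) to 7759033 reads (juvenile muscle), with a median of 744715, so that 1 read was worth 0.129 to 23.9 RPM. In a piece of organ, fewer cells of a type and less RNA per cell cannot be told apart. Several marker miRNAs of the organs were high where the label says. miR-124a, a neuronal miRNA, had a median of 34538 RPM in brain and miR-1, the main miRNA of striated muscle, 918666 RPM in muscle and 447023 RPM in heart. miR-192, an epithelial miRNA, had a median of 158044 RPM in kidney and 157964 RPM in liver, so it does not tell these organs apart, and miR-208b, from a cardiac myosin gene, 37.3 RPM in heart. Other listed markers were weaker. The epithelial miR-215 had medians of 118 RPM in kidney and 38.0 RPM in liver, while miR-194 had 3 reads in kidney and 0 in liver. The brain marker miR-128 (median 8.56 RPM in brain) and the muscle marker miR-206 (median 1.41 RPM in muscle) were scarce. The liver marker miR-122 was listed in no library, nor were the neuronal miR-9 and the germ cell miRNAs miR-34b and miR-34c. The testes marker miR-202 had 8 reads over the 4 testes libraries, so the identity of liver and testes could not be checked well on markers. For spleen, the lymphocyte miRNA miR-150 was highest there (median 262 RPM), but the blood cell miRNA miR-142-5p had a lower median in spleen (81.0 RPM) than in antler (127 RPM) or testes (103 RPM), and miR-223 was not listed. Lung, adrenal and antler had no marker in the list.

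Of the 4 miRNAs, miR-196a and miR-196b carried nearly all the reads. miR-196b had 8897 reads in 35 of 40 libraries and miR-196a had 3837 reads in 33 libraries. miR-10b had 58 reads in 14 libraries and miR-10a 5 reads in 4 libraries. Kidney held 82.9% of the miR-196b reads and 52.4% of the miR-196a reads, and muscle held 13.4% and 42.8%. The 16 caudal libraries together (31374450 miRNA reads) held 3800 reads of miR-196a, 8799 of miR-196b and 51 of miR-10b. The 12 rostral libraries (14323248 miRNA reads) held 20, 53 and 1.

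On total miRNA reads, the scale of RPM, miR-196a was most abundant in kidney, with 1575 RPM in the juvenile, 1196 RPM in the adolescence, 723 RPM in the adult and 953 RPM in the aged library (mean 1112 ± 365, SD, n = 4). In testes, in the same order of stages, it had 153, 89.2, 72.2 and 71.7 RPM (96.5 ± 38.6, SD, n = 4), the last 3 resting on 6, 7 and 3 reads. In muscle it had 61.9, 10.8, 48.2 and 131 RPM (63.1 ± 50.4, SD, n = 4), from 59 reads in the adolescence library to 792 in the aged one. The adolescence muscle was the low library of that organ, and in RPM muscle and testes overlapped, while after the TMM scaling described below muscle (251 to 1710) lay above testes (18.4 to 68.9). How many miRNAs keep muscle above testes on that scale was not counted. In adrenal miR-196a had 12.8, 10.5, 13.4 and 22.5 RPM (14.8 ± 5.26, SD, n = 4), on 8 to 21 reads. In RPM every kidney library lay above every library of the other organs, which does not hold for muscle after TMM scaling. On total reads the median of the 124 tested miRNAs also stood higher in kidney, by 1.08 on the log2 scale over the other 9 organs. How many miRNAs set kidney apart in this way was not counted. In the other 6 organs the mean level was between 0.636 RPM (heart) and 2.89 RPM (lung), and no library held more than 6 reads. Antler (2.21 RPM), liver (2.59 RPM) and spleen (2.56 RPM), which stand in neither set, were thus within the range of the rostral organs. miR-196a was not listed in 7 libraries, 2 each of antler and liver and 1 each of brain, heart and spleen.

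miR-196b had 3378, 2694, 2298 and 5272 RPM in kidney from the juvenile to the aged library (3411 ± 1318, SD, n = 4). Among the known miRNAs of those libraries it ranked 20th to 26th, and miR-196a ranked 31st to 39th. In testes miR-196b had 357, 14.9, 61.8 and 23.9 RPM (114 ± 163, SD, n = 4). The juvenile testes held 191 reads and the 3 later testes 1, 6 and 1, so the testes mean rests on the juvenile library. In muscle miR-196b had 37.6, 21.3, 36.8 and 89.8 RPM (46.4 ± 29.9, SD, n = 4), on 116 to 541 reads. In adrenal it had 9.58, 9.35, 8.36 and 20.3 RPM (11.9 ± 5.63, SD, n = 4), close to spleen with 4.71 to 16.8 RPM (mean 10.4) and lung with 5.76 to 9.23 RPM (mean 7.61). Liver had a mean of 8.88 RPM, brain 3.61, heart 3.29 and antler 0.346, where 1 read in the aged library was all. The mature miR-196a and miR-196b are near-identical, so a part of their reads may have been given to the wrong one.

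**Figure D1:**
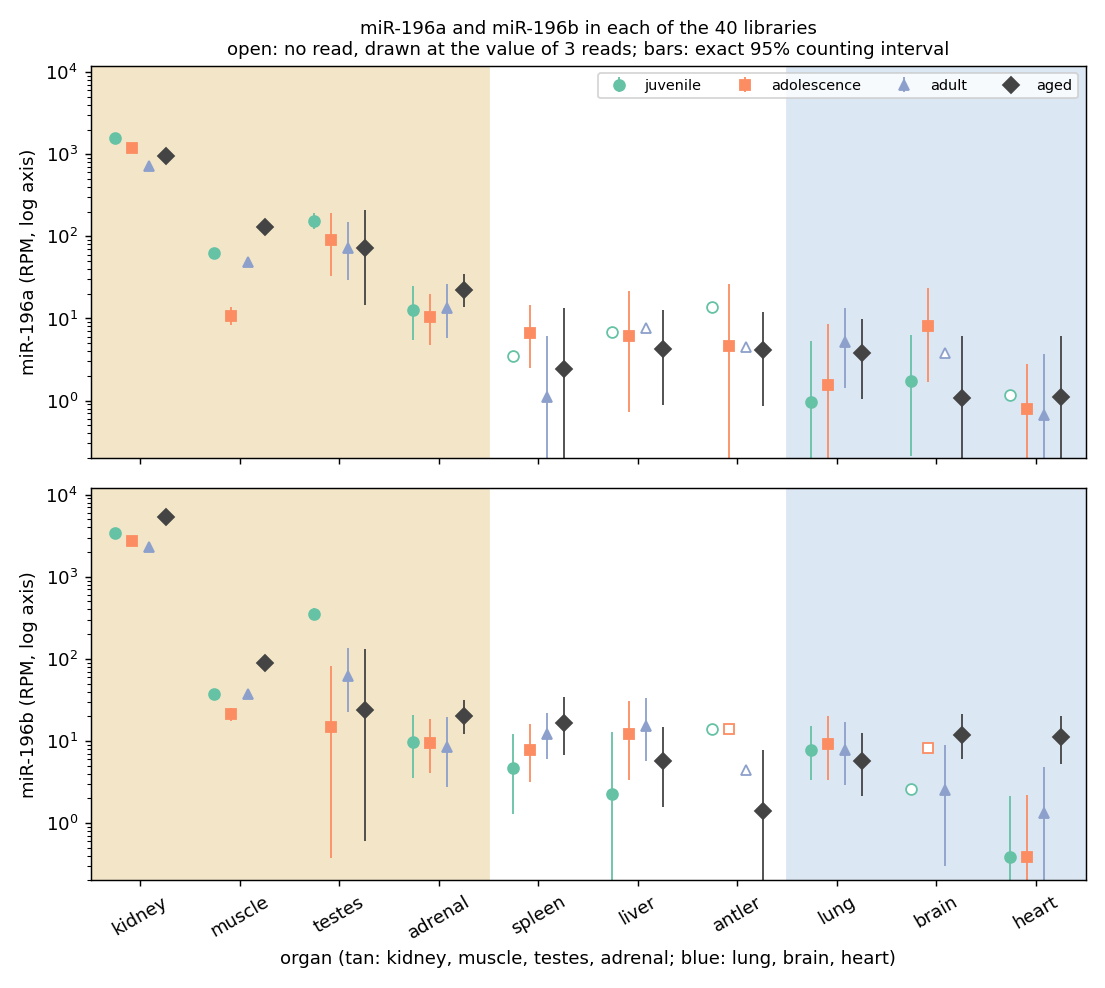
Level of miR-196a (top) and miR-196b (bottom) in RPM on a log axis, 1 point for each of the 40 libraries by organ and stage, with exact 95% intervals that cover the counting of reads only; open symbols had no read and stand at the value of 3 reads. On this scale of total miRNA reads the 4 kidney libraries lie above all others in both panels, at 723 to 1575 RPM of miR-196a and 2298 to 5272 RPM of miR-196b, while the juvenile, adolescence and adult adrenal points of miR-196b (8.36 to 9.58 RPM) fall among those of spleen, liver and lung and the aged adrenal (20.3 RPM) lies above them.

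Whether the caudal organs differed from the rostral ones was tested with limma on log2(RPM + 1), with organ and stage in the model. The library sizes were first scaled by TMM, a factor per library under which the bulk of the miRNAs keeps the same level. Only miRNAs that reached 10 reads in 4 or more libraries were tested, which 124 known miRNAs did, miR-196a and miR-196b among them. A miRNA was called at an adjusted p below 0.01 and a log2 difference above 1 in either direction. miR-196a was higher in the caudal organs by 5.25 on the log2 scale (SE 0.39, limma adjusted p = 1.25e-13) and miR-196b by 4.76 (SE 0.42, limma adjusted p = 1.29e-11). In this contrast 32 of 124 miRNAs (25.8%) were called. Of these, 17 of 124 miRNAs (13.7%) were called higher and 15 (12.1%) lower, and the median difference of all tested was 0.0071. This balance depends on the scaling, with 20 higher and 11 lower (median 0.29) without TMM and 41 higher and 11 lower (median 0.54) on total reads without miR-1. miR-196a had the largest and miR-196b the second largest rise, ahead of miR-424-5p (4.51), miR-193b (3.07) and miR-199c (2.13). This order and the p-value of miR-196a are descriptions, since all 10 libraries with 10 reads or more of miR-196a were caudal. miR-196a thus met the minimum through these organs alone, which also holds for its p-values between caudal and rostral organs below. For miR-196b 10 such libraries were caudal, 2 rostral and 1 spleen, so it too would have missed the minimum of 4 libraries without the caudal organs. Its place in the order and its p-values between caudal and rostral organs are therefore descriptions as well. The 2 tested of 3 epithelial miRNAs, miR-192 the most abundant, were also called higher in the caudal organs. Their part in the result was not tested.

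**Figure D2:**
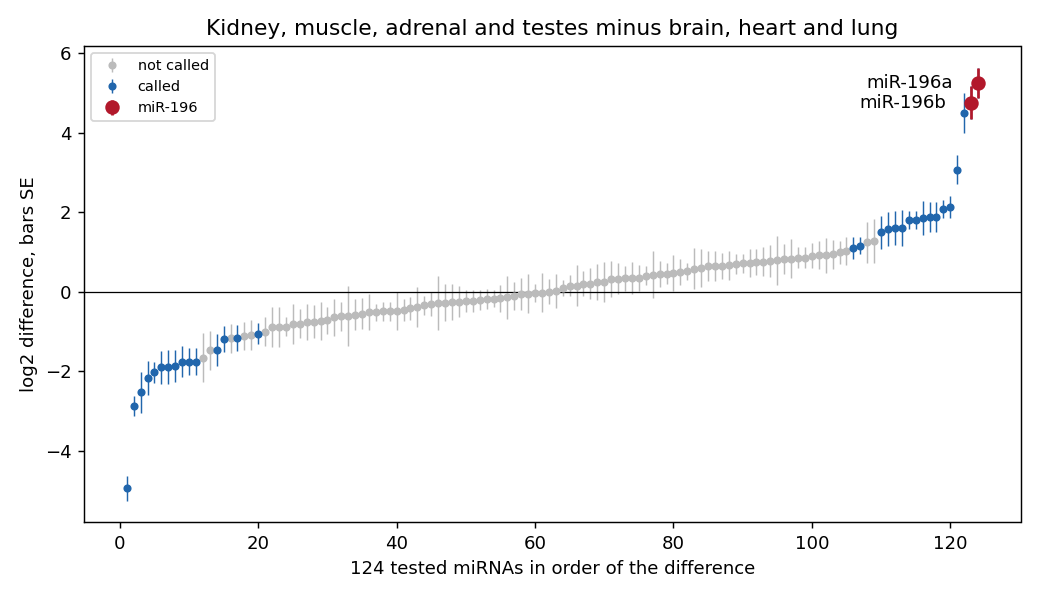
Difference between the mean of kidney, muscle, adrenal and testes and the mean of brain, heart and lung for each of the 124 tested miRNAs, on the log2(RPM + 1) scale after TMM scaling, with bars of 1 SE, in order of size. miR-196a at 5.25 and miR-196b at 4.76 (red) stand at the upper end of the 32 called miRNAs.

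The difference was carried by kidney and muscle more than by adrenal. Without kidney and muscle, the contrast of adrenal and testes with the rostral organs was 2.68 for miR-196a (limma adjusted p = 1.21e-05) and 1.58 for miR-196b (limma adjusted p = 0.0125, not called). Of the 12 pairs of 1 caudal and 1 rostral organ, miR-196a was called higher in the caudal organ in 9 and miR-196b in 8, where 13.5% of all tests of a miRNA in these pairs were. Kidney and muscle were called above brain, heart and lung for both. Testes were called above all 3 for miR-196a, by 3.52 over brain, 4.12 over heart and 3.19 over lung. For miR-196b testes were called above brain (3.14) and heart (2.61) but not lung (1.21, limma adjusted p = 0.287). Without TMM testes were called above lung in miR-196b too (2.68, limma adjusted p = 0.00609), which makes 9 of 12 pairs, while the median of all miRNAs over lung moved from -0.25 to 1.09. The miR-196b calls of testes rest on the juvenile library, without which the differences were 1.98 over brain (limma adjusted p = 0.0186) and 1.45 over heart (limma adjusted p = 0.110), not called. Those of miR-196a stayed called without it, at 2.68 to 3.61. Adrenal was called above none of the 3. It exceeded brain in miR-196a by 1.65 (95% interval 0.24 to 3.06, limma adjusted p = 0.0697), heart by 2.26 (0.85 to 3.66, limma adjusted p = 0.0128) and lung by 1.32 (-0.084 to 2.73, limma adjusted p = 0.213). In miR-196b it exceeded brain by 1.66 (0.13 to 3.19, limma adjusted p = 0.0957) and heart by 1.13 (-0.40 to 2.65, limma adjusted p = 0.291) and differed from lung by -0.27 (-1.80 to 1.25, limma adjusted p = 0.885). On total miRNA reads without TMM, 2 of the 3 adrenal differences of miR-196a were called and 0 of those of miR-196b. On that scale the median of all miRNAs also stood higher in adrenal, by 0.84 over brain, 2.07 over heart and 0.75 over lung, and 24.2%, 44.4% and 18.5% of miRNAs were called higher.

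Library by library, the caudal and rostral RPM values of miR-196a did not overlap. The lowest caudal library was the adolescence adrenal at 10.5 RPM (9 reads), and the highest rostral library was the adolescence brain at 8.14 RPM (3 reads), a gap well inside the counting error of either. miR-196a was the 1 miRNA of the 124 (0.806%) with all 16 caudal libraries above all 12 rostral ones. It is among the 124 through caudal libraries alone, so this count is a description. After TMM scaling 13 of the 16 caudal libraries lay above the highest rostral one, and 0 of 124 tested miRNAs (0%) separated the sets. For miR-196b 13 of 16 caudal libraries exceeded the highest rostral library, the aged brain at 11.9 RPM (11 reads), while the adult adrenal was lowest at 8.36 RPM. After TMM scaling 11 of the 16 did, and the adolescence testes were lowest at 3.07 RPM. How many of all tested miRNAs reach such partial counts was not counted. Without TMM the median of all tested miRNAs also stood higher in the caudal organs, by 0.29 on the log2 scale.

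The study compared single libraries, with the sampling of reads as the only error. By that model, written out again with the same limits (q below 0.01, log2 difference above 1), each caudal library was set against each rostral library of its stage, which gives 48 pairs. miR-196a was called higher in 44 pairs, 12 of 12 for kidney and testes, 11 for muscle and 9 for adrenal. miR-196b was called higher in 35 pairs, 12 of 12 for kidney and muscle, 7 for testes and 4 for adrenal. Neither was called lower in any pair. Over all miRNAs 28.2% of such tests were called higher and 20.4% lower, so this model calls often.

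Each organ was then set against the mean of the other 9. Kidney was higher by 6.13 for miR-196a (SE 0.54, limma adjusted p = 1.50e-11) and by 7.42 for miR-196b (SE 0.58, limma adjusted p = 1.34e-12), where 16.9% of miRNAs were called. Muscle was higher by 6.82 (limma adjusted p = 1.81e-13) and 6.15 (limma adjusted p = 2.28e-11), with 33.9% called. Without TMM the muscle differences were 2.40 (limma adjusted p = 1.39e-04) and 1.63 (limma adjusted p = 0.00754). On that scale the median of all miRNAs in muscle was -3.61, with 7 called higher and 102 lower. Testes were higher in miR-196a by 1.79 (limma adjusted p = 0.00970, 0.0141 without the stage block) and differed in miR-196b by 0.55 (limma adjusted p = 0.527), with 20.2% called. The testes value of miR-196b changed with the processing, at -0.61 without the juvenile testes, -0.044 with a pseudocount of 10 RPM, and called at 2.07 without TMM, 2.16 by edgeR and 2.47 by DESeq2. The testes call of miR-196a was lost without the juvenile or the adult stage (limma adjusted p = 0.0415 and 0.0955), and with the juvenile testes alone of that organ the difference was 3.23. The last compares 1 testes library, whose spread is assumed to be that of the other organs. Adrenal was called for neither, at -0.28 and -1.10, with 17.7% called. Its miR-196a value turned to 0.59 without TMM and 0.45 with a pseudocount of 0.1 RPM, and its miR-196b value was called at -1.26 with a pseudocount of 10 RPM and at -1.495 without the 3 shallow testes libraries. The mean of the other 9 holds kidney or muscle or both, which sets it high. Against it both miRNAs were lower in antler (-2.56 and -3.97), brain (-2.12 and -2.94), heart (-2.79 and -2.35) and liver (-2.79 and -1.94), with 36.3%, 40.3%, 30.6% and 21.8% of miRNAs called. The miR-196a calls of antler and brain were lost by edgeR (adjusted p = 0.0250 and 0.0163) and by DESeq2 (adjusted p = 0.0379 and 0.0210) on recovered reads. The liver call of miR-196b was lost without the stage block (limma adjusted p = 0.0142), without TMM (0.143) and by edgeR (0.0284). Its heart call was lost with a pseudocount of 0.1 RPM. In spleen miR-196a alone was called, at -2.45 (by edgeR adjusted p = 0.0187, not called), where 5.65% of miRNAs were. In lung neither was, at -1.75 (limma adjusted p = 0.0165) and -0.79, with 12.9% called. Over all organs the F test of limma gave an adjusted p of 4.00e-15 for miR-196a and 1.58e-14 for miR-196b, as it passed for 75% of the tested miRNAs.

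Heart and muscle are both rich in miR-1 but stood far apart in miR-196. Muscle exceeded heart by 8.65 in miR-196a (SE 0.72, limma adjusted p = 3.63e-12) and by 7.65 in miR-196b (SE 0.78, limma adjusted p = 6.05e-10), where 11.3% of miRNAs were called between the organs. On total miRNA reads without TMM the differences were smaller, 4.89 (limma adjusted p = 6.00e-07) and 3.94 (limma adjusted p = 3.62e-05), and still called. In RPM the 4 heart libraries held 0 to 1.10 of miR-196a and the 4 muscle libraries 10.8 to 131. In miR-196b the heart held 0.387, 0.391, 1.32 and 11.05 RPM and muscle 21.3 to 89.8 RPM. How many of all tested miRNAs keep these organs apart in RPM was not counted.

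Which of kidney and muscle held more miR-196a depended on the scaling. miR-1 alone had 910959 to 928505 RPM in muscle, which leaves few reads for the others. The TMM factors of muscle were 0.0431 to 0.0769 against 1.81 to 2.39 in kidney. After TMM scaling miR-196a stood at 1023, 251, 834 and 1710 RPM in muscle and at 803, 504, 303 and 527 RPM in kidney, which overlap. Between these organs 21.8% of miRNAs were called. The difference, kidney minus muscle, was -0.63 after TMM (SE 0.72, limma adjusted p = 0.544) and 4.51 on total miRNA reads (limma adjusted p = 8.59e-07). For miR-196b it was 1.15 after TMM (SE 0.78, limma adjusted p = 0.262) and 6.29 on total reads (limma adjusted p = 2.85e-09). Among the known miRNAs of a library, a measure that no scaling changes, miR-196a ranked 31st to 39th in kidney and 25th to 48th in muscle, and miR-196b 20th to 26th and 29th to 40th. By mean log2 after TMM the order of miR-196a was muscle, kidney, testes, adrenal, lung and then the others. Between neighbours in this order a difference was called only from kidney to testes (3.90, limma adjusted p = 7.15e-05, 14.5% of miRNAs called). Adrenal minus testes was -1.87 (limma adjusted p = 0.0466, 20.2% called). The order of miR-196b was kidney, muscle, testes, lung, spleen, adrenal, liver, heart, brain and antler, and between neighbours a difference was called only from muscle to testes (5.04, limma adjusted p = 2.16e-06, 29% called). That step also depends on the scaling, since without TMM muscle minus testes turned to -0.40 in miR-196b (limma adjusted p = 0.627) and, from 4.53, to -0.98 in miR-196a (limma adjusted p = 0.198).

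**Figure D3:**
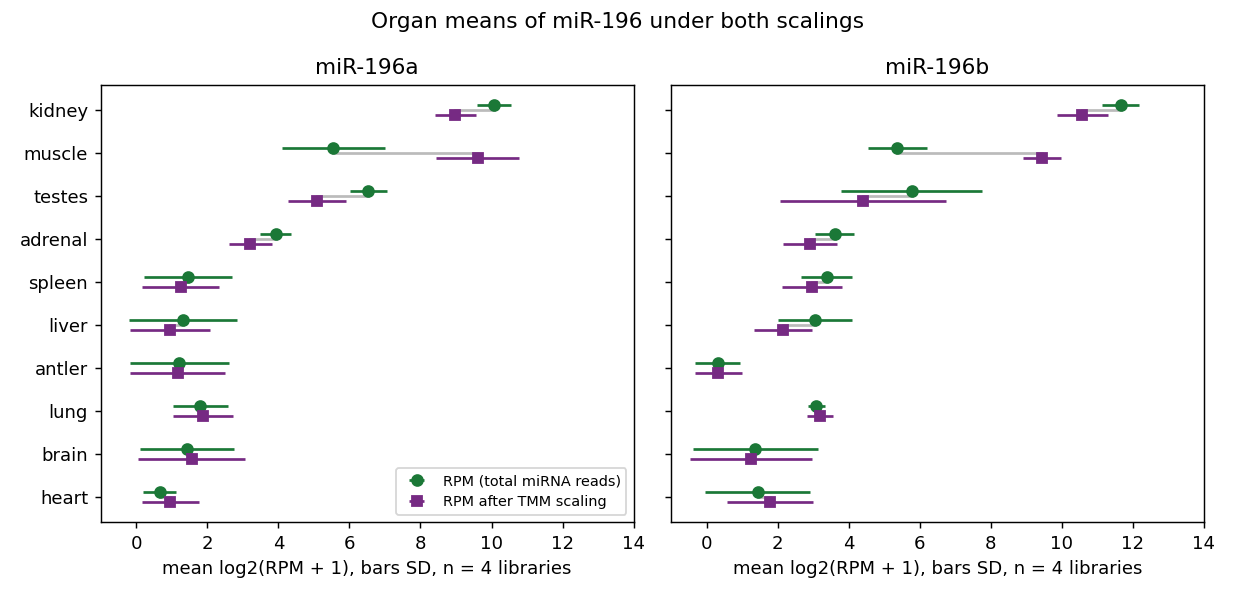
Mean of log2(RPM + 1) of miR-196a (left) and miR-196b (right) in each organ with bars of 1 SD over 4 libraries, on total miRNA reads (green circles) and after TMM scaling (purple squares). The scaling moves muscle by about 4 log2 units, which puts muscle (9.61) beside kidney (8.98) for miR-196a, and moves the other organs far less.

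The balance of the miR-196 forms within a library does not depend on scaling. miR-196a made up 31.8%, 30.7%, 23.9% and 15.3% of the miR-196 reads of kidney from the juvenile to the aged library (25.4% ± 7.61, SD, n = 4). In muscle it made up 62.2%, 33.7%, 56.7% and 59.4% (53.0% ± 13.1, SD, n = 4). Muscle lay above kidney at all 4 stages, with the adolescence muscle the lowest at 2.97 percentage points above its kidney. The difference was 27.6 percentage points (exact permutation test, two-sided p = 0.0286, the smallest that 4 against 4 allows). With stages paired, as the deer were shared, exact sign flips gave p = 0.125, the smallest that 4 pairs allow. These were the only organs with at least 20 miR-196 reads in each library, so 1 pair was compared. Summed over libraries the share was 21.4% in kidney (exact 95% binomial interval 20.6 to 22.3) and 58.1% in muscle (56.2 to 59.9), intervals of counting error alone. In adrenal it was 54.8% of 84 reads (43.5 to 65.7), and in testes 33.0% of 297 reads, mostly from the juvenile library.

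**Figure D4:**
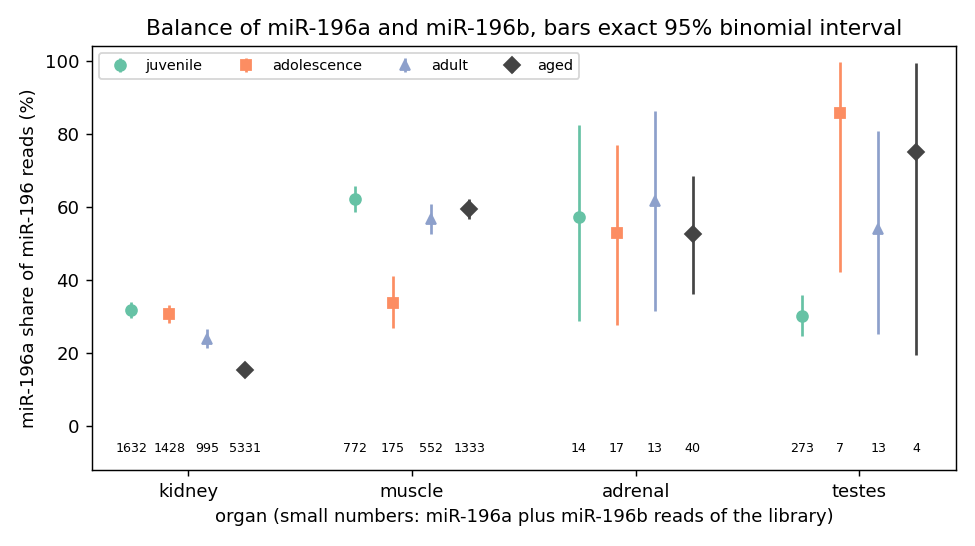
Share of miR-196a in the sum of miR-196a and miR-196b reads, in percent, for each library of kidney, muscle, adrenal and testes, with exact 95% binomial intervals and the reads behind each share below it. The muscle shares (33.7% to 62.2%) lie above the kidney shares (15.3% to 31.8%), and the later testes rest on 4 to 13 reads.

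Across stages, with organ in the model, neither form was called (limma F test, adjusted p = 0.325 for miR-196a and 0.316 for miR-196b), where 6 of 124 miRNAs (4.84%) were. That count ran from 0 to 9 with a stage left out and was higher by edgeR and DESeq2. Leaving out testes gave miR-196b an adjusted p of 0.00596 by the same limma test. A stage is 1 group of 3 deer, so stage and deer cannot be told apart. Within single organs larger steps were seen, given here with counting intervals and no test. In kidney miR-196b rose from the adult to the aged library by a ratio of RPM of 2.29 (2.12 to 2.48) while miR-196a had a ratio of 1.32 (1.14 to 1.53). In muscle miR-196a had ratios of 0.175 (0.131 to 0.230) from the juvenile to the adolescence library, 4.45 (3.36 to 5.98) to the adult and 2.73 (2.39 to 3.12) to the aged. For miR-196b the same steps in muscle were 0.565, 1.73 and 2.44. In testes miR-196b had a ratio of 0.0417 (0.00105 to 0.235) from the juvenile to the adolescence library, which rests on 1 read in the latter. After TMM scaling that ratio was 0.0191, and the testes step of miR-196a was 0.267 against 0.583 in RPM. In adrenal the step from the adult to the aged library was 1.68 (0.714 to 4.38) in RPM and 3.00 after TMM for miR-196a, and 2.43 (0.878 to 8.33) and 4.35 for miR-196b, on 5 to 21 reads.

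miR-10b and miR-10a were scarce, and no library held 10 reads of either, so they did not enter the tests. miR-10b was found in all 4 adrenal libraries, with 6, 7, 8 and 7 reads (9.65 ± 2.63 RPM, SD, n = 4). In kidney it had 5, 0, 4 and 7 reads (8.87 ± 6.57 RPM, SD, n = 4) and in testes 5, 1, 0 and 0 reads. Muscle, with the deepest libraries, held 1 read in sum. There 3 reads would be 0.387 to 0.55 RPM, but 6.40 to 12.8 RPM after TMM scaling, where adrenal stood at 5.11 to 6.25 RPM, so on that scale muscle was not bounded below adrenal. Antler held 4 reads, spleen 2 and lung 1, and brain, heart and liver held none, where 3 reads would be 1.16 RPM in the deepest of these libraries (juvenile heart) and 9.09 RPM in the shallowest (adolescence liver). Thus 51 of the 58 reads came from caudal organs and 1 from a rostral organ. In single-library comparisons miR-10b was called higher in 13 of 48 pairs, 7 of them for adrenal, 4 for kidney and 2 for testes. These were 40.6% of the 32 pairs with a read of miR-10b, where the model called 28.2% of all such tests higher. Fitted with no minimum of reads over 306 miRNAs, miR-10b was higher in the caudal organs by 1.497 (SE 0.31, limma adjusted p = 4.56e-04, 6.21% of miRNAs called higher), a value that depends on the pseudocount of 1 RPM. As the rostral organs held 1 read, this fit sets few reads against almost none, and its values are a description only. Adrenal, which was not called for miR-196, stood 2.10 above the other 9 organs in that fit (limma adjusted p = 4.71e-04, 5.56% called higher). miR-10a had 1 read in the adult and 1 in the aged kidney, 2 in the adult spleen and 1 in the aged lung, too few to compare.

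**Figure D5:**
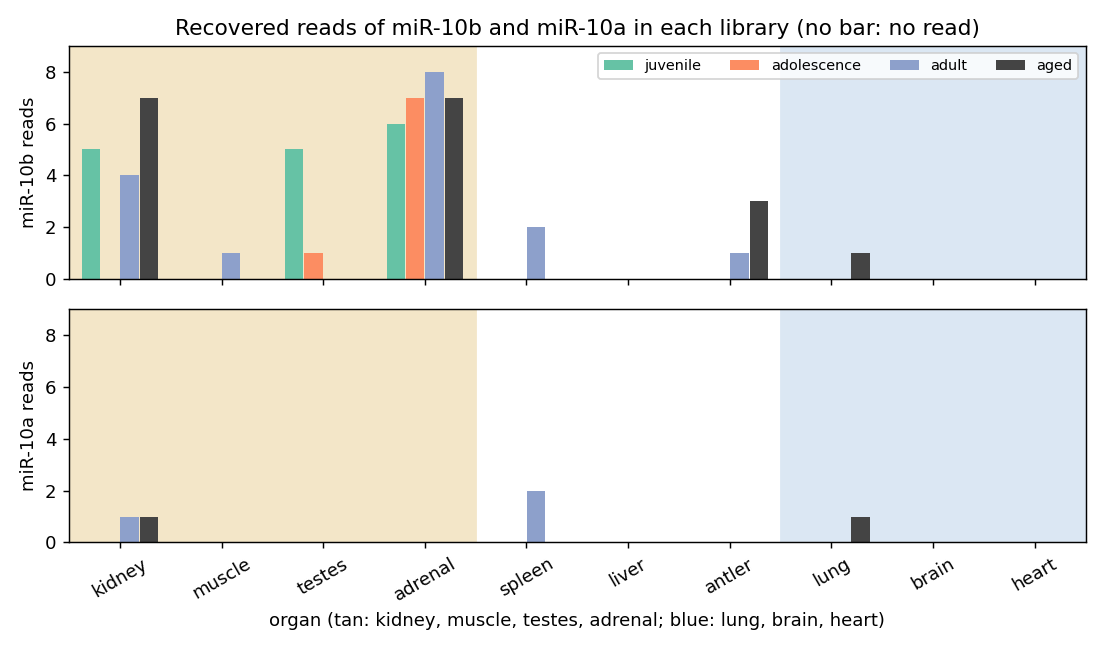
Reads of miR-10b (top) and miR-10a (bottom) in each library by organ and stage, with the axis from 0 and no bar where no read was listed. Adrenal shows miR-10b at all 4 stages (6 to 8 reads) and kidney at 3, while brain, heart and liver show none.

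Other miRNAs of the same context were looked up from a list of relatives. miR-615, a further miRNA of the Hox C cluster, was listed in no library, nor were miR-99a, miR-99b and miR-100, which are grouped with miR-10 in the same family. Of the let-7 family and miR-98, 7 of 9 names were listed and 6 tested. In the contrast of caudal and rostral organs 0 of these were called higher and 1 lower (let-7b, limma adjusted p = 1.17e-04), where 13.7% of all tested miRNAs were called higher and 12.1% lower. The median difference of the 6 was -0.33 against 0.0071 over all tested miRNAs.

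The miRNA most like miR-196a across the 40 libraries was miR-196b (Pearson r = 0.904 of log2 values after TMM), as a description over libraries that share organs and stages. Without kidney and muscle the coefficient was 0.544 over 32 libraries. Next to miR-196a came miR-30b-5p (0.626), miR-193b (0.555), miR-532 (0.502) and miR-1839 (0.490), and next to miR-196b came miR-30b-5p (0.655), miR-30a-5p (0.578), miR-532 (0.519) and miR-193b (0.516). miR-30b-5p had a median of 438 RPM in kidney and 43.8 RPM over all libraries. In muscle its median was 9.12 RPM, below that over all libraries, but after TMM scaling, which the coefficients use, it was 7.21 on the log2 scale, above the 5.48 over all libraries. Without kidney and muscle its coefficient with miR-196a was 0.143.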

How the data were processed

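Per the methods of the study, the authors trimmed the small RNA reads, removed other RNA classes, assigned known miRNAs by miRBase and predicted more with miRDeep. The submitters' processing notes name CASAVA, bcl2fastq 1.8.4 and Bowtie. The deposited values are RPM, the reads of a miRNA per 1000000 miRNA reads of its library (named tpm in the header). miRNAs without a read are missing from a table and were set to 0. All 7982 values were whole reads to within 0.01 (largest distance 0.000243), and these recovered reads gave depths and counting intervals. In antler the name miR-148c was read as miR-2957.

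The 306 known miRNAs were used. limma 3.58.1 (trend) in R 4.3.3 was fitted to TMM-scaled log2(RPM + 1), with factors from edgeR 4.0.16 and organ and stage as terms over 40 libraries. miRNAs with 10 reads or more in 4 libraries or more were tested, with Benjamini-Hochberg adjustment. The added 1 makes differences of scarce miRNAs smaller. Stage numbers the replicates, and libraries of a stage share deer per the methods: residuals of libraries of a stage had a mean r of 0.142 (180 pairs) against -0.0454 between stages (540 pairs). Replicates of an organ are thus pools of different ages. The limma p-values and intervals use the spread left after organ and stage, an estimate per miRNA that all organs share. They do not measure the spread of the organs compared, which differed. For miR-196b the SD on the log2 scale after TMM ran from 0.369 in lung to 2.33 in testes. Pairs of libraries were compared by the random sampling model of DEGseq, rewritten in Python 3.11.15, with 0.5 for 0 reads. Alternatives were other scalings, pseudocounts, read minimums, edgeR and DESeq2 1.42.0 on recovered reads (calling 35 and 37 miRNAs between caudal and rostral organs), no block, and leaving out stages or organs. On simulated data for that contrast (124 miRNAs, 20 changed), limma recovered 95% with 0 false calls.

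The miRNAs, the lists and the sets of organs were chosen with earlier results of these data known. By rule the text names the 4 miRNAs, the listed relatives and markers, the 3 next largest rises between caudal and rostral organs and the 5 miRNAs most like each form of miR-196.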

Additional observations from a re-analysis of the deposited data

Results flagged for a closer look

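Of 30 groups of 4 libraries (the organs where a miRNA had a read), 9 had a highest library far from the other 3. In 6 of these the other 3 libraries had no read, which sets a group apart whatever its value, so no chance rate applies to them. For the other 3 groups, the limit marks about 1 in 20 groups of this size by chance if values are normal and either end counts. Only the highest library was looked at, and RPM from few reads need not be normal, so this is not their chance rate. miR-196b stood apart in the juvenile testes at 357 RPM (next 61.8 RPM), in the aged adrenal at 20.3 RPM (next 9.58 RPM) and in the aged heart at 11.05 RPM on 10 reads (next 1.32 RPM). In antler 1 read in the aged library gave 1.38 RPM of miR-196b, with no read in the other 3. The remaining groups rest on 1 or 2 reads in a single library of an organ: miR-10a and miR-10b at 0.959 RPM each in the aged lung and at 2.21 RPM each in the adult spleen, and miR-10b at 0.154 RPM in the adult muscle. No explanation was tested for any of these.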

How the results depend on the processing

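Between caudal and rostral organs, miR-196a was called under all 27 alternatives (2.68 to 6.42, highest limma, edgeR or DESeq2 adjusted p = 1.21e-05), and miR-196b under all but the contrast without kidney and muscle (1.58 to 6.06). In the fits with a minimum of 10 reads miR-196a met it through caudal libraries alone, and miR-196b met it only with the caudal libraries counted. The calls of both forms there are thus no check of the result. The reads of both forms summed gave 5.06. The count of called miRNAs in that contrast was 52 on total reads without miR-1 and 21 to 32 with a stage left out, against 32 (34 without the juvenile testes library). Without TMM 20 were called higher and 11 lower, and on total reads without miR-1 41 and 11, with the median of all tested at 0.29 and 0.54. The count of stage calls (6) was 3 with a pseudocount of 0.1, 2 with no minimum of reads, 10 by edgeR, 32 by DESeq2, 0 with stage alone in the model, 0 to 9 with a stage left out, 1 without antler, 0 without heart, lung or muscle 12 without spleen and 2 without the juvenile testes library. miR-196b passed the stage test without testes (limma adjusted p = 0.00596).

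Kidney minus muscle turned to 4.51 (no TMM) and 0.93 (without miR-1) in miR-196a and became called in miR-196b at 6.29 and 2.70 under the same scalings, and muscle minus testes turned to -0.98 in miR-196a and -0.40 in miR-196b with no TMM. The scalings of these pairs and the fit without the juvenile testes library were tried after the data were seen. Against the other 9 organs, miR-196a of adrenal turned to 0.59 (no TMM), 0.0066 (without miR-1) and 0.45 (pseudocount 0.1). miR-196b of testes turned to -0.044 (pseudocount 10), -0.30 (without the juvenile stage) and -0.61 (without the juvenile testes alone), with 1.61 the highest when a stage was left out. It was called at 2.07 with no TMM, 2.16 by edgeR and 2.47 by DESeq2. Without the 3 testes libraries under 100000 reads it was 3.96. That leaves 1 testes library with a spread assumed from the other organs, so no call is read from it. miR-196a of testes was no longer called at 2.66 (pseudocount 0.1), at 0.52 (pseudocount 10), at 1.79 with no minimum of reads, with 10 reads in at least 10 libraries or with no replicate block. It was 3.23 without the 3 shallow testes libraries, which leaves 1 testes library, so no call is read from that value. With a stage or the juvenile testes left out it ran from 1.28 to 2.55. miR-196b of liver was no longer called at -0.95 (no TMM), -1.45 (without miR-1), -1.68 (pseudocount 0.1), -1.94 (no minimum of reads, or no replicate block) and -2.08 (edgeR), and ran from -2.42 to -1.53 with a stage left out. miR-196a was no longer called in brain at -2.53 (pseudocount 0.1), -2.35 (edgeR) and -2.13 (DESeq2), in antler at -2.45 (edgeR) and -2.40 (DESeq2), and in spleen at -2.94 (pseudocount 0.1) and -2.61 (edgeR). With a stage left out it ran from -2.75 to -1.69 in brain and from -2.84 to -2.02 in spleen. miR-196a of lung became called under 4 alternatives and miR-196b of adrenal under 2, all lower. miR-196b of heart was no longer called at -2.31 (pseudocount 0.1), with -2.68 to -2.11 when a stage was left out. The replicate block changed no other call of a miR-196 form. The share of miR-196a in muscle minus kidney was 22.04 to 35.8 points with a stage left out, where 3 against 3 cannot go below an exact permutation p of 0.1, and 27.6 points with p = 0.125 in the replicate block by exact sign flips. With at least 10 reads in either library 30 single-library pairs were left for miR-196a and it was higher in 29. All 10 libraries that meet this minimum are caudal, so it chooses pairs by the outcome and the count is no check of the result. The cause of the other changes was not tested.

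Depth limits the low end: 1 read in the aged testes is 23.9 RPM, above the mean of miR-196a in adrenal. All miR-10 values rest on few reads, also in the deepest libraries.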
